A study of Mus musculus with 4 samples.

Results

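The data described here are the transcript levels of 10 mouse genes that form the outer part of myostatin signalling: the ligands Gdf8 (myostatin, current symbol Mstn), Gdf11, Inhba and Inhbb, the receptors Acvr1b, Acvr2a, Acvr2b and Tgfbr1, and the antagonists Fst and Fstl3. They were measured in C2C12 cells, mouse myoblasts kept as a line, which fuse into myotubes in low serum. All probes whose deposited gene name was one of these were taken, which gave 15 of the 41174 probes on the array. Of these, 12 probes of 9 genes were bright enough to be tested.

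The treated cells had been given 20 nM GDF8, a recombinant mouse myostatin, every 24 h during 6 days of differentiation, and the cells set against them had differentiated for the same 6 days untreated. Both had first been grown in 10% fetal bovine serum, and the labels disagree on whether the horse serum of the differentiation medium was 2% or 10%. RNA of each group was labelled with Cy3 or Cy5, and 4 two-colour arrays on 1 slide each held 1 GDF8 and 1 untreated RNA. Replicates 1 and 4 had the GDF8 RNA in Cy3 (green), and replicates 2 and 3 had it in Cy5 (red). The labels call these biological replicates without naming separate cultures, so p-values measure only the spread between these arrays, which may be technical. The labels mark replicates 1 and 4 as dye swaps without naming the arrays they were swapped against, and if arrays shared an RNA there were fewer than 4 replicates. The study's methods and labels state no other treatment or genetic change.

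Myostatin, GDF11 and the activins are secreted dimers of the TGF-beta family. They bind a type II receptor (ACVR2A or ACVR2B), which activates a type I receptor (ACVR1B or TGFBR1), and the pair phosphorylates SMAD2 and SMAD3. Follistatin and FSTL3 bind these ligands outside the cell and keep them from their receptors, and in skeletal muscle myostatin is known as a brake on muscle growth.

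In the fit of 4 arrays, none of the 12 tested probes differed between GDF8 and untreated cells at an adjusted p under 0.05. Of all 26883 probes tested, 208 were higher after GDF8 (0.774%) and 525 were lower (1.95%), against 0 of 12 and 0 of 12 for these genes. At an unadjusted p under 0.05 there were 3 of 12 (Fst, 1 probe of Inhbb and 1 probe of Acvr1b, all below 0), which is 25% of these probes against 12.1% of all probes. The study's own unpaired t-test, run on single-channel values, passed 0 of the 12 at that unadjusted threshold. Averaging arrays 1 with 2 and 3 with 4, as if each pair were a swap of the same RNA, gave 2 of 12 at that unadjusted threshold. It passed 0 of 12 at an adjusted p under 0.05. Averaging 1 with 3 and 2 with 4, a pairing added after the data were seen, passed Inhba as higher at that adjusted threshold (1 of 12, against 5.42% of all probes). It passed 3 of 12 as lower, Fst, Inhbb A_52_P152847 and Acvr1b A_52_P373893 (against 6.94%). In that fit of 2 averages limma gave every probe the same variance, so its p-values do not reflect a probe's own spread. The median log2 ratio of GDF8 over untreated was -0.09 over the 12 probes and 0.01 over all tested probes. The smallest absolute log2 ratio among probes that did pass was 0.45, and the median standard error over all probes was 0.10.

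Values are of 2 kinds. A log2 level is the log2 intensity of a channel, background-corrected and scaled so that arrays can be compared; it has no meaning between probes. A log2 ratio is GDF8 over untreated within an array, and its ± is the standard error from limma over 4 arrays, with a 95% interval where printed. Whether a level reflects RNA per cell or the number of cells that make it cannot be told apart in such bulk RNA.

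**Figure D1:**
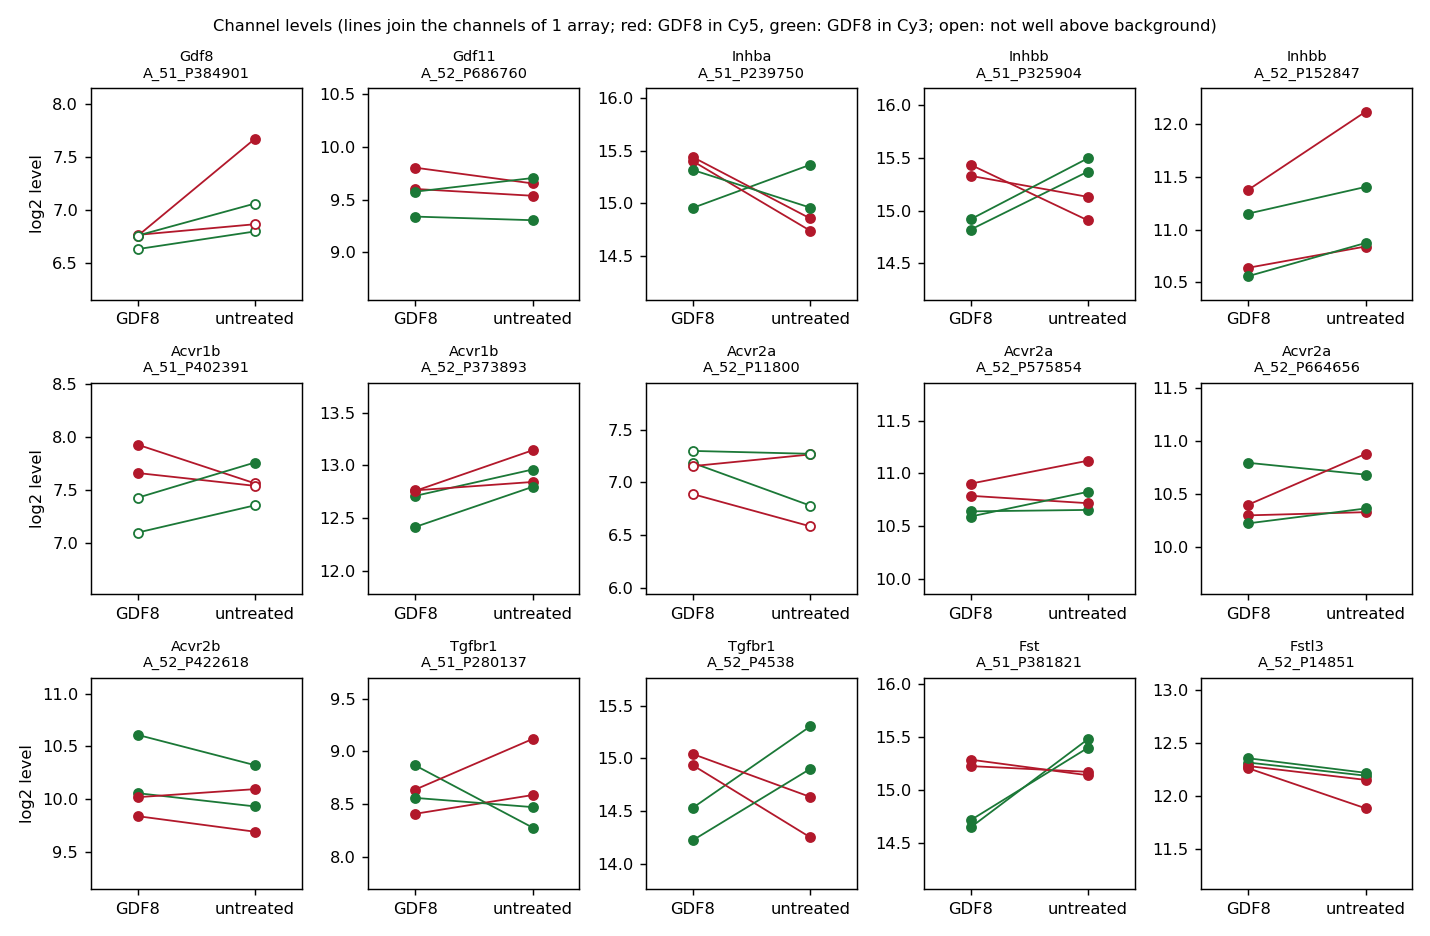
Log2 level (y axis) of each of the 15 probes in the GDF8 channel (left) and the untreated channel (right) of each array. Lines join the channels of an array, red lines are arrays with GDF8 in Cy5 and green lines arrays with GDF8 in Cy3, and open circles are spots not well above background. Most lines of Acvr1b A_52_P373893 and Fstl3 run parallel, while those of Fst and Tgfbr1 A_52_P4538 run apart by dye.

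Among the ligands, the gene of the protein that was added was near background on most arrays. The Gdf8 probe A_51_P384901 was well above background in 0 of 4 GDF8 channels and in 1 of 4 untreated channels, that of replicate 3. Its background-subtracted intensity in replicates 1 to 4 was 162, 31.9, 26.2 and 164 in the GDF8 channels, against 45.6, 185, 259 and 46.9 in the untreated channels. On every array the higher value was that of the green channel. The 153 negative control spots of each array had medians of 141, 13.9, 10.3 and 156 in the GDF8 channels and 15.1, 157, 158 and 9.95 in the untreated channels. All 4 GDF8 values lay under the 95th percentile of the negative controls of their own channel, while the untreated values of replicates 3 and 4 lay above it, at 259 against 193 and 46.9 against 34.7. The probe was therefore not tested and no fold is given.

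Gdf11, the closest relative of myostatin in sequence, was measured in all channels. The levels of A_52_P686760 in replicates 1 to 4 were 9.34, 9.80, 9.60 and 9.57 after GDF8, against 9.30, 9.65, 9.54 and 9.70 in untreated cells. The groups overlapped, and the ratio was 0.03 ± 0.09 with an interval of -0.19 to 0.25 (adjusted p = 0.96). GDF8 was the higher channel on 3 of 4 arrays.

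Inhba and Inhbb encode the beta subunits of activin A and activin B. The Inhba probe A_51_P239750 had levels of 14.96, 15.40, 15.44 and 15.32 after GDF8, against 15.37, 14.74, 14.86 and 14.96 in untreated cells. GDF8 was the higher channel on replicates 2, 3 and 4 and the lower one on replicate 1. The fitted ratio was 0.30 ± 0.13 with an interval of -0.02 to 0.61 and did not pass (adjusted p = 0.46), although 96.1% of all tested probes had a lower ratio. The GDF8 spot of replicate 2 was saturated, so that its ratio of 0.66 rests on a clipped signal. Without replicate 1 the ratio was 0.49, with an adjusted p of 0.086, and without replicate 4 it was 0.11, with an adjusted p of 0.92.

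The pair of Inhbb probes gave different pictures. The dimmer one, A_52_P152847, had levels of 11.15, 10.64, 11.38 and 10.56 after GDF8, against 11.40, 10.84, 12.12 and 10.87 in untreated cells. GDF8 was the lower channel on all 4 arrays, by 0.25, 0.20, 0.74 and 0.31, but the levels varied between replicates by more than this and the groups overlapped. The ratio was -0.38 ± 0.11, or 1.30-fold lower, with an interval of -0.64 to -0.11, and it did not pass (adjusted p = 0.20). Leaving out each array in turn gave -0.51 (without replicate 2) to -0.24 (without replicate 3).

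The brighter Inhbb probe, A_51_P325904, had levels of 14.82, 15.33, 15.43 and 14.92 after GDF8, against 15.37, 15.13, 14.91 and 15.49 in untreated cells. GDF8 was higher on both arrays where it carried Cy5 and lower on both where it carried Cy3. The fitted ratio was -0.10 ± 0.10 with an interval of -0.33 to 0.13 (adjusted p = 0.84). The intervals of the 2 probes overlap, and the difference between the probes was not tested.

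**Figure D2:**
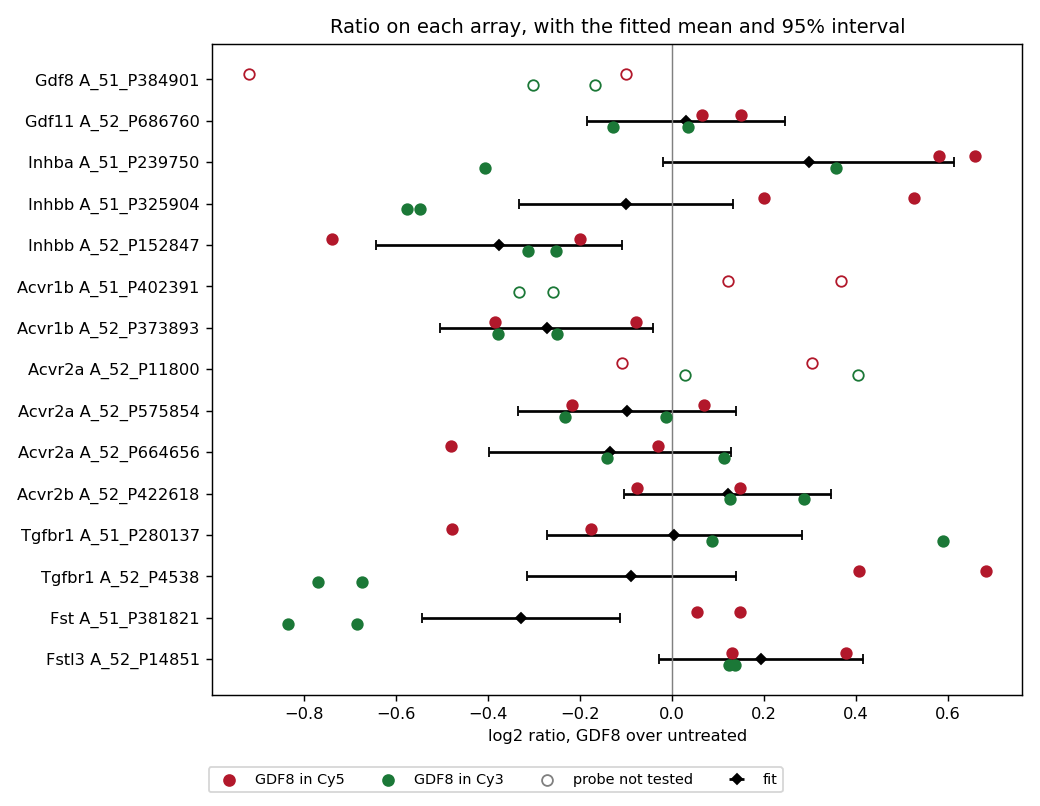
Log2 ratio of GDF8 over untreated (x axis) on each array for the 15 probes, with the fitted ratio and its 95% interval in black. Red points are arrays with GDF8 in Cy5, green points arrays with GDF8 in Cy3 and open points probes not tested. Fstl3 lies above 0 on all 4 arrays, Inhbb A_52_P152847 and Acvr1b A_52_P373893 lie below 0 on all 4, and the points of Tgfbr1 A_52_P4538, Inhbb A_51_P325904 and Fst separate by dye.

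Of the receptors, the type I receptor of activin and myostatin, Acvr1b (ALK4), showed the most regular difference, which also did not pass. The probe A_52_P373893 had levels of 12.71, 12.76, 12.76 and 12.42 after GDF8, against 12.96, 12.84, 13.14 and 12.80 in untreated cells. Every GDF8 level lay below every untreated level, a pattern shared by 3.43% of the 26567 probes with a value on all arrays. The ratio was -0.27 ± 0.10, or 1.21-fold lower, with an interval of -0.51 to -0.04 (adjusted p = 0.30). Leaving out each array in turn gave -0.35 to -0.20. In the files this probe carries the accession of a cDNA clone and not that of the gene's RefSeq transcript. The other Acvr1b probe, A_51_P402391, was well above background in 2 of 4 GDF8 and 1 of 4 untreated channels, had ratios of -0.26, 0.37, 0.12 and -0.33, and was not tested.

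Tgfbr1 (ALK5), the other type I receptor, was read by 2 probes that leaned on the dye in opposite directions. The probe A_52_P4538 had levels of 14.53, 14.93, 15.04 and 14.23 after GDF8, against 15.30, 14.25, 14.64 and 14.90 in untreated cells. Its ratio averaged 0.54 on the arrays with GDF8 in Cy5 and -0.72 on those with GDF8 in Cy3. The dye term was 0.63 and the GDF8 term -0.09 ± 0.10, with an interval of -0.32 to 0.14 (adjusted p = 0.85).

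The dimmer Tgfbr1 probe, A_51_P280137, had levels of 8.87, 8.41, 8.64 and 8.56 after GDF8, against 8.28, 8.59, 9.12 and 8.47 in untreated cells. Here the Cy5 arrays averaged -0.33 and the Cy3 arrays 0.34, the reverse of the other probe. The fitted ratio was 0.0048 ± 0.12, with an interval of -0.27 to 0.28 (adjusted p = 0.99). On both probes the dye term was larger in size than the GDF8 term, although the dye terms themselves had adjusted p-values of 0.061 and 0.14 in limma.

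The type II receptors had ratios close to 0. For Acvr2a, the probe A_52_P575854 had levels of 10.64, 10.79, 10.90 and 10.59 after GDF8, against 10.65, 10.72, 11.12 and 10.83 in untreated cells. The ratio was -0.10 ± 0.10 with an interval of -0.34 to 0.14 (adjusted p = 0.84), and the groups overlapped. The probe A_52_P664656 of the same gene had levels of 10.80, 10.30, 10.40 and 10.22 after GDF8, against 10.68, 10.33, 10.88 and 10.36 in untreated cells. Its ratio was -0.14 ± 0.11 with an interval of -0.40 to 0.13 (adjusted p = 0.80), and it did not pass either. Without replicate 3 the 2 ratios were -0.027 and -0.022. The third, A_52_P11800, was above background in 0 of 8 channels.

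Acvr2b, the other type II receptor of myostatin and the activins, had levels of 10.06, 10.02, 9.84 and 10.61 on A_52_P422618 after GDF8, against 9.93, 10.10, 9.69 and 10.32 in untreated cells. GDF8 was the higher channel on 3 of 4 arrays. The ratio was 0.12 ± 0.10 with an interval of -0.10 to 0.35 (adjusted p = 0.78), a difference within the spread between replicates.

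The antagonists pointed in opposite directions, and neither passed. Follistatin, encoded by Fst, had levels on A_51_P381821 of 14.65, 15.23, 15.29 and 14.71 after GDF8, against 15.48, 15.17, 15.14 and 15.40 in untreated cells. GDF8 was lower by 0.83 and 0.68 on the arrays where it carried Cy3 and higher by 0.05 and 0.15 where it carried Cy5. The fitted ratio, which averages the dye orientations, was -0.33 ± 0.09 with an interval of -0.54 to -0.11, or 1.26-fold lower (adjusted p = 0.15). It had the smallest unadjusted p of these genes (0.0084), and 5.45% of all tested probes had a smaller one. The untreated spot of replicate 1 was saturated, and leaving out each array in turn gave ratios of -0.37 to -0.29.

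FSTL3, encoded by Fstl3, is a secreted relative of follistatin. The levels of A_52_P14851 were 12.32, 12.28, 12.26 and 12.36 after GDF8, against 12.19, 12.15, 11.88 and 12.22 in untreated cells. Every GDF8 level lay above every untreated level, as for 2.00% of all probes with complete values. The ratio was 0.19 ± 0.09, or 1.14-fold higher, with an interval of -0.03 to 0.42 (adjusted p = 0.51). The ratios of replicates 1, 2 and 4 lay between 0.12 and 0.14 and that of replicate 3 was 0.38; without replicate 3 the fitted ratio was 0.13.

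Read for sign alone, Fstl3 was the 1 probe of these genes above 0 on all 4 arrays, against 7.69% of the 26567 complete probes. Inhbb A_52_P152847 and Acvr1b A_52_P373893 were the 2 tested probes below 0 on all 4, against 7.90%. With 4 arrays the smallest two-sided p of an exact sign-change test is 0.125, so a shared sign cannot pass a threshold by itself.

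**Figure D3:**
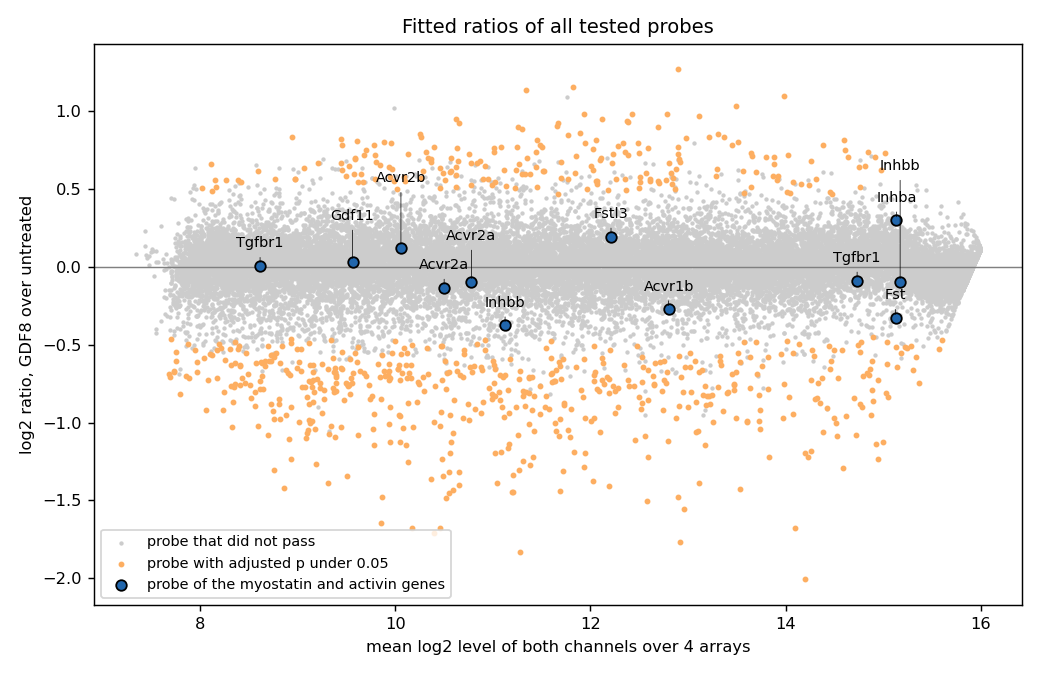
Fitted log2 ratio of GDF8 over untreated (y axis) against the mean log2 level of both channels (x axis) for the 26883 tested probes. Orange points have an adjusted p under 0.05 and blue points are the 12 probes of the myostatin and activin genes, all of which lie among the grey probes that did not pass.

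For 4 probes with intensities near the top of the scanner's range the ratio of an array depended on how the intensities were processed. The mean intensity of Fst in replicates 1 to 4 was 25417, 54723, 52857 and 10823 in the GDF8 channels, against 64461, 31712, 33348 and 50707 in the untreated channels, where the highest value on any array was 65261 in red and 65299 in green. The red channel was the brighter one on every array, whichever RNA it held. In the authors' deposited table, made from the scanner software's own processed signals, Fst was lower after GDF8 on all 4 arrays, by 0.45, 0.55, 0.26 and 0.39. A limma fit of that table gave -0.41 with a dye term of 0.01 and an adjusted p of 0.19.

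Inhba in the authors' deposited table had ratios of 0.01, 0.10, 0.21 and 0.70, all above 0, and its fitted ratio there was 0.25 (adjusted p = 0.66). Between the deposited table and the loess-normalised ratios, an array's value differed by up to 0.61 for Fst and for Inhbb A_51_P325904, by up to 0.56 for Inhba and by up to 0.33 for Tgfbr1 A_52_P4538. The largest such gap was 0.28 for Tgfbr1 A_51_P280137 and at most 0.08 for each of the other 7 tested probes. The direction of every fitted ratio was the same in both, and no probe passed in either.

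**Figure D4:**
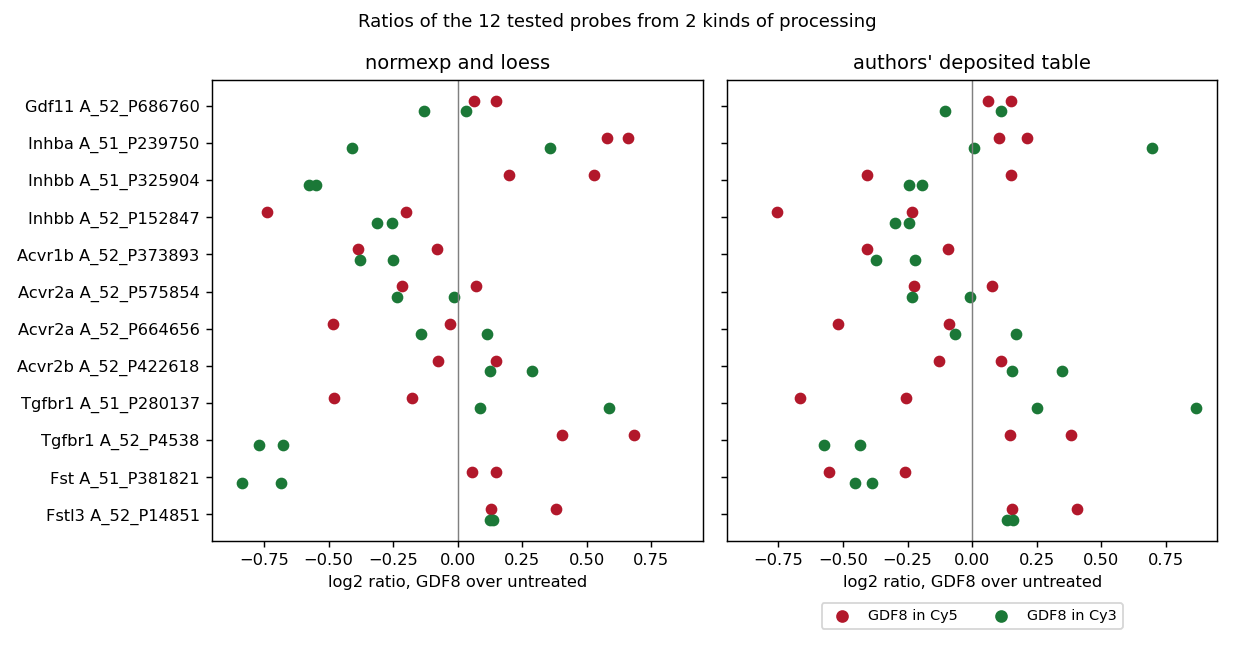
Log2 ratio of GDF8 over untreated (x axis) on each array for the 12 tested probes, after normexp and loess (left) and in the authors' deposited table (right). Red points are arrays with GDF8 in Cy5 and green points arrays with GDF8 in Cy3. For Fst and Inhbb A_51_P325904 the colours lie apart on the left and closer together on the right, while Fstl3, Acvr1b A_52_P373893 and Inhbb A_52_P152847 hardly move.

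Around these genes, lists of other pathway genes were read in the same fit. Among 13 tested probes of the other type I, type II and co-receptors, 0 were higher and 1 was lower, with a median of -0.03. The probe that passed was that of Amhr2 (A_51_P466221), the type II receptor of anti-Müllerian hormone. Its levels were 11.40, 11.43, 11.28 and 10.85 after GDF8, against 12.45, 12.47, 12.35 and 12.43 in untreated cells. Every GDF8 level lay below every untreated level, as for 3.43% of complete probes. Amhr2 fell by 1.19 ± 0.11 on the log2 scale, or 2.28-fold (adjusted p = 0.0071, lower on 4 of 4 arrays). The next smallest p-values in that list belonged to Tgfbr2, the type II receptor of TGF-beta, at 0.16 ± 0.11 (adjusted p = 0.70) on A_52_P251403, and Bmpr1b, a type I receptor of BMPs, at 0.17 ± 0.12 (adjusted p = 0.72). The other tested Tgfbr2 probe, A_51_P450573, was at 0.03 and was saturated in 3 of 4 GDF8 and 4 of 4 untreated channels.

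No other list had a probe past the threshold in the fit of 4 arrays. The other ligands of the branch had 9 tested probes with ratios from -0.35 to 0.21 and a median of 0.07. Gdf1, a ligand of the left-right axis in the embryo, was at -0.35 ± 0.09 (adjusted p = 0.12), with ratios of -0.70 and -0.77 where GDF8 carried Cy3 and -0.01 and 0.07 where it carried Cy5, the same split by dye as Fst. As for Fst, the split depended on the processing. In the authors' deposited values Gdf1 was at -0.35, -0.66, -0.30 and -0.46 in replicates 1 to 4. Inhbe, which encodes an activin subunit of liver, was at 0.21 ± 0.10 (adjusted p = 0.51) and Tgfb2 at 0.17 ± 0.09 (adjusted p = 0.60). The Tgfb2 probe was saturated in 2 of 4 GDF8 and 1 of 4 untreated channels, so its ratio rests on clipped signals, and it could not be tested without them.

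The other extracellular antagonists and binding proteins had 15 tested probes from -0.26 to 0.13, with a median of -0.02. The BMP antagonists led this list: Nog was at -0.26 ± 0.09 (adjusted p = 0.28), Chrd at -0.18 ± 0.10 (adjusted p = 0.60) and Grem1 at -0.16 ± 0.09 (adjusted p = 0.61). Of the 6 tested probes of proteases that process or free these ligands, Pcsk6, a proprotein convertase, was at 0.32 ± 0.10 on A_52_P376574 (adjusted p = 0.20). Its ratios were 0.84 and 0.62 where GDF8 carried Cy5 and -0.19 and 0.01 where it carried Cy3. In the authors' deposited values they were 0.16, 0.47, 0.33 and 0.05 in replicates 1 to 4. The other Pcsk6 probe, A_51_P180905, was not tested. Bmp1, a protease that cleaves the myostatin propeptide, was at 0.11 ± 0.09 on A_52_P299921 (adjusted p = 0.82) and at -0.12 ± 0.14 on A_51_P488646, which was saturated in 2 of 4 GDF8 and 1 of 4 untreated channels. Pcsk7 was at -0.07 ± 0.10 (adjusted p = 0.89) and, on its other probe, at -0.03 ± 0.11.

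The intracellular Smad mediators and feedback inhibitors had all 19 of their probes tested, with a median ratio of 0.15 against 0.01 over all probes, and 0 of them passed in either direction. Smad3, one of the mediators that the receptors phosphorylate, was at -0.33 ± 0.10 on A_51_P441022 (adjusted p = 0.18). Its levels there were 10.10, 10.19, 10.19 and 9.98 after GDF8, against 10.47, 10.42, 10.29 and 10.58 in untreated cells. Every GDF8 level lay below every untreated level, as for 3.43% of the 26567 complete probes. The other 2 probes of Smad3 were at -0.28 and -0.05, and on both the groups overlapped. The corepressors Tgif1 and Ski were at 0.28 ± 0.09 (adjusted p = 0.23) and 0.30 ± 0.10 (adjusted p = 0.27). The other probes of Ski were closer to no difference, A_51_P301508 at 0.09 and A_51_P518503 at -0.0013. Both ratios rest on clipped signals, since the first was saturated in 2 of 4 GDF8 channels. The second was saturated in 3 of 4 GDF8 and 4 of 4 untreated channels.

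**Figure D5:**
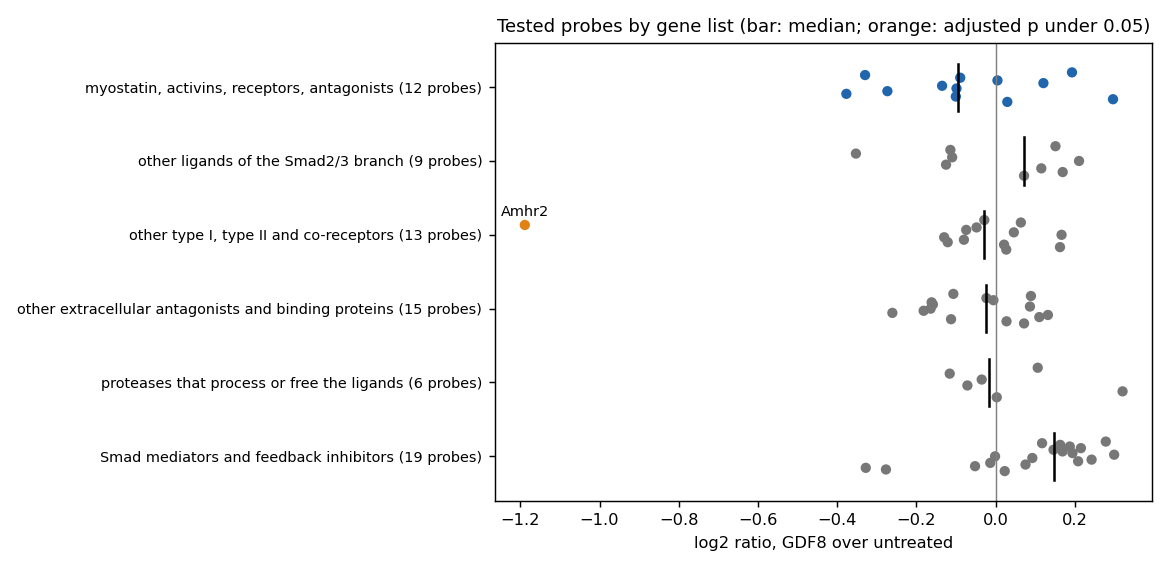
Fitted log2 ratio of GDF8 over untreated (x axis) of the tested probes of the myostatin and activin genes (blue) and of 5 lists of related genes (grey), with a bar at each median. The Amhr2 probe, in orange, is the 1 probe with an adjusted p under 0.05, and the Smad mediators have the highest median (0.15).

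The cells carried the transcripts of skeletal muscle: 18 of 22 probes of 15 muscle genes were well above background in all 8 channels, and 13 were saturated in at least 1 channel. Detection was not particular to muscle genes. The same held for 10 of 11 smooth muscle, 9 of 13 bone and cartilage and 5 of 8 adipocyte probes, and for 3 of 19 probes of blood, endothelial and nerve genes. In the fit, 0 of 20 tested muscle probes were higher and 3 were lower: Mef2c, a muscle transcription factor (-0.95, adjusted p = 0.012), Ckm, muscle creatine kinase (-0.93, adjusted p = 0.042), and 1 of the probes of Myh8, perinatal myosin (-0.70, adjusted p = 0.019). That Myh8 probe, A_52_P363051, was well above background in 2 of 4 GDF8 and 4 of 4 untreated channels. It was thus tested only through the untreated channels, and its ratio rests on dim signals. The other tested Myh8 probes did not pass, at -0.54 (adjusted p = 0.069) and at -0.09 on a probe saturated in 2 of 4 GDF8 and 4 of 4 untreated channels. The mean level of the muscle probes was 13.29 to 13.45 in GDF8 channels and 13.45 to 13.66 in untreated channels, and its part in the values above was not tested. Of 10 tested smooth muscle probes, with a median of 0.10, 1 was lower, Lmod1 (-0.48, adjusted p = 0.040). Tagln A_52_P517683 (0.44, adjusted p = 0.057), Cnn1 (0.56, adjusted p = 0.081) and Acta2 A_52_P644232 (0.38, adjusted p = 0.28) were above 0 on 4 of 4 arrays, against 7.69% of complete probes, and did not pass. Acta2 A_52_P210078 (-0.30, adjusted p = 0.25) was, like Lmod1, below 0 on 4 of 4 arrays, against 7.90%, and did not pass. That Acta2 probe was saturated in 2 of 4 GDF8 and 4 of 4 untreated channels, so its ratio and sign rest on clipped signals. Of the other tested Acta2 probes, none of which passed, A_52_P239556 was at -0.09. A_51_P450957 was at 0.08 and A_52_P420504 at 0.12, saturated in 3 and 4 of 4 GDF8 channels and in all untreated channels. Smtn was at -0.20, and the other Tagln probe, saturated in 4 of 4 GDF8 and 4 of 4 untreated channels, was at 0.12. None of 5 adipocyte or 11 bone and cartilage probes passed. Of 19 probes of blood, endothelial and nerve genes, 11 were above background in no channel. These included all probes of the blood marker Ptprc and the endothelial marker Pecam1. In the same list Cd68, Tubb3 and 1 probe of Hbb-b1 were above background in all 8 channels and 1 probe of the endothelial Kdr in 7 of 8, and Tubb3 was at 0.56 ± 0.12 (adjusted p = 0.066). The part of these lists in the values above was not tested.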

How the data were processed

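Total RNA of GDF8-treated and untreated C2C12 cells was hybridised as labelled cRNA to 4 Agilent arrays of design 014868. Agilent Feature Extraction 9.1.1.1 wrote the deposited scanner files, which give the intensity of each spot with its local background and, per the file headers, the log10 of the red to green ratio. Their other columns are, per the file headers, 0 or 1 flags (outlier, saturated, well above background). GeneSpring GX 12 and an unpaired t-test with a fold over 1.6 were used by the authors, per the design text. The authors' deposited table holds log2 values, which equalled the log2 processed ratio turned to GDF8 over untreated in 100% of 40929 single-spot probes (tolerance 0.001). Its columns are not centred (medians 0.14, -0.09, -0.11 and 0.09). No table column was without a sample.

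Intensities were corrected by normexp (offset 50) and normalised by loess in limma 3.58.1 under R 4.3.3. Control spots had weight 0, outlier spots were left out, and spots of a probe were averaged. A probe was tested if it was well above background in all 4 GDF8 or all 4 untreated channels and had a value in both dye orientations. Ratios were fitted with a GDF8 term and a dye term per probe, and p-values adjusted by Benjamini-Hochberg over all 26883 probes. Each ratio lies within an array, so replicates are paired by array. Channel levels follow loess and Aquantile scaling. The fit was tested on simulated ratios. Averages of array pairs were fitted as alternatives, since the labels mark dye swaps without naming partners.

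Depending on the channel, 63.3% to 78.8% of spots passed the background flag and 0.74% to 12.1% were saturated. The number of arrays limits precision, and all lay on 1 slide, so no batch could be tested.

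Genes and lists were chosen with earlier results of these data known. Every probe of the 10 genes is named, and from each pathway list each gene that passed and the 3 with the smallest p. The markers named were chosen after their values were seen. Gene names are those of the files. Probe sequences and coordinates were not used here.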

Additional observations from a re-analysis of the deposited data

Results flagged for a closer look

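Among 27 ratios searched, 3 had 1 array far from the other 3 of its set, where chance alone marks about 1 in 20 such sets. For Fstl3, replicate 3 gave a log2 ratio of 0.379, while the other arrays lay between 0.12 and 0.14. For Amhr2, replicate 4 gave -1.58, while the others lay between -1.08 and -1.05. For Tgif1, replicate 3 gave 0.375, while the others lay between 0.24 and 0.25. The Amhr2 call held without replicate 4 (-1.06, adjusted p = 0.028), and Fstl3 and Tgif1 did not pass with or without the array.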

How the results depend on the processing

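Of the 18 alternatives, 17 passed 0 of the tested probes of the 10 genes, with a smallest adjusted p of 0.086 (Inhba without replicate 1). Over all probes, against 208 higher and 525 lower, processed signals gave 110 higher, 135 higher came from the authors' deposited log2 values, leaving out the dye term gave 87 higher and 342 lower, and the fit with no replicate block gave 64 higher and 285 lower. The methods' t-test gave 87 higher at its own p and fold thresholds, and 25 higher and 76 lower after Benjamini-Hochberg. Averaging arrays 1 with 2 and 3 with 4 gave 23 higher and 184 lower. Averaging arrays 1 with 3 and 2 with 4, added after seeing the data, gave 1459 higher and 1868 lower, with 1 probe of the 10 genes higher and 3 lower, and also passed 6 related genes that had not passed (Gdf1, Nog, Pcsk6, Smad3, Tgif1 and Ski). The labels do not say which pairing, if any, applies. Leaving out each array in turn gave 33 to 161 higher and 194 to 451 lower, with 33 and 194 without replicate 2 and 60 and 211 without replicate 4, fits with fewer arrays. Among fitted ratios that did not pass, the direction turned for Gdf11 A_52_P686760 (-0.011 to 0.070 on leaving out each array) and for Tgfbr1 A_51_P280137 (-0.12 to 0.13). Saturation limits the brightest probes and background the dimmest, and with 4 arrays the median standard error of 0.10 leaves small differences unresolved.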
